A study of Mus musculus with 8 samples.

Results

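Smooth muscle and actomyosin genes, 36 in number, were followed in the outflow tract of mouse embryos that lacked the retinoic acid synthesising enzyme Raldh2. The set holds genes of the smooth muscle contractile apparatus, of non-muscle actomyosin, of the transcription factors around serum response factor, of adhesion and its scaffold, and of mural cells. Its members were every probe that is not a control and whose gene name, or the gene of its accession, was 1 of the 36 names: 53 of the 55681 probes of the array, with 22 genes on a single probe and 14 on several. Of these genes, 35 were among the 24385 tested, and Lmod1, a leiomodin of smooth muscle thin filaments, was left out. Its probe was well above background on 3 of the 8 arrays, but not on 3 arrays of 1 group, as the test required. Agilent one-colour arrays on 1 slide measured expression, 1 array per pool, each pool holding 4 outflow tracts microdissected at stage E10.5. There were 4 pools of Raldh2-/- embryos, numbered 1, 2, 3 and 7 and called knockout pools here. The controls were 4 pools of wild type (WT) littermates, numbered 1, 2, 5 and 7. Dams of both groups ate powdered food with 0.1 mg/g all-trans-retinoic acid between E7.5 and E8.5, so the embryos of both are rescued, and no group without the supplement enters the comparison. Because no label says that pools came from separate litters, the p-values measure only the spread between pools.

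Smooth muscle contracts when calcium activates myosin light chain kinase, which phosphorylates the regulatory light chain of myosin and lets it pull on actin filaments dressed with tropomyosin, caldesmon and calponin. Serum response factor (SRF) switches many of these genes on through the CArG box in their promoters, together with myocardin or with the related cofactors Mkl1 and Mkl2 (now Mrtfa and Mrtfb), which leave the cytoplasm when actin polymerises. In the outflow tract, smooth muscle of the future aorta and pulmonary trunk arises from neural crest and from the second heart field, next to a myocardial wall that itself makes several smooth muscle proteins, among them alpha smooth muscle actin.

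The CArG box links the transcription factors of the set to its structural genes, so the promoters that hold one are shown. RefSeq promoters (GRCm38.p6, 250 bases before to 50 bases after the start) were matched by symbol for 30 of the 36 genes. Tagln, Myh11, Actg2, Myocd, Csrp2 and Pdgfrb had no promoter entry and were not searched. The CArG box was searched as CCWWWWWWGG, where W is A or T, a pattern that reads alike on both strands. Boxes with a mismatch were not searched. An exact box stood in 5 of the 36 promoters of those genes, against 1.63% of all 32851 promoters of the same length. The 250 bases before the start follow, 5′ to 3′, with the box in capitals.
Myl9: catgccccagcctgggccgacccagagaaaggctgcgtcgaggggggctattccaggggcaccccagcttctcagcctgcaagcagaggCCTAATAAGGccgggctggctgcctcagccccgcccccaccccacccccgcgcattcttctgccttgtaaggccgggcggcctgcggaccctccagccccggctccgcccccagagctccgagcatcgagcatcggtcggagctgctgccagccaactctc
Myl6: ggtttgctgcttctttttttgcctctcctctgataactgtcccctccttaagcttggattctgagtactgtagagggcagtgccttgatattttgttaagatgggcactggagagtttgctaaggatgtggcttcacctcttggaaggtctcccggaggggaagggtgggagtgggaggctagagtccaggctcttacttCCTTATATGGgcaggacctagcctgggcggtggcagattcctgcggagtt
Cnn2: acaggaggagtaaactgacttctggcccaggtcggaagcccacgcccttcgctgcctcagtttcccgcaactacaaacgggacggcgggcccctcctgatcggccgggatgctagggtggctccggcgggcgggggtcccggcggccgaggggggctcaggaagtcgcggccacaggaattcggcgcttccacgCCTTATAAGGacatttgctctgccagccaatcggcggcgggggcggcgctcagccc
Vcl: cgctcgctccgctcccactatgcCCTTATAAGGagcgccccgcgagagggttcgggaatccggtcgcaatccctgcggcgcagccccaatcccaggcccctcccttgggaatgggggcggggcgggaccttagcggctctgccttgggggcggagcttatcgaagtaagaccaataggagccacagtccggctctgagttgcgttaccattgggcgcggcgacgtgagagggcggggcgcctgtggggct
Srf: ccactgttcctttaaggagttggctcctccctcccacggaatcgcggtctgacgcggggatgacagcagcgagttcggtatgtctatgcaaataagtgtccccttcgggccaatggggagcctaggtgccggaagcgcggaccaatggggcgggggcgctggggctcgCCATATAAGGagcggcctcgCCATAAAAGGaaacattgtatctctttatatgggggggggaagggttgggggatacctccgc

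These stretches lie on GRCm38.p6 at chr2:156775214-156775463 (plus strand) for Myl9, chr10:128493010-128493259 (minus) for Myl6, chr10:79988350-79988599 (plus) for Cnn2, chr14:20929148-20929397 (plus) for Vcl and chr17:46556163-46556412 (minus) for Srf. The box began 161 bases before the start in Myl9, 50 in Myl6, 56 in Cnn2 and 227 in Vcl. Srf held a pair of boxes, beginning 82 and 62 bases before its own start. A match describes the letters in this window and is not a measured binding site.

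The array of WT pool 1 stood apart. It had 94.7% of spots well above background, against 53.3% to 63.2% on the other 7 arrays, and its median processed signal was 2023, against 40.0 to 83.0. Its median correlation with the other arrays over log2 values of all probes was 0.68, against 0.97 to 0.99. Gene differences below are therefore given with and without that pool. The slide row of an array and its genotype cannot be told apart, since all knockout arrays lay in 1 row and all WT arrays in the other. Aldh1a2, the current name of Raldh2, had a log2 level of 2.26, 2.23, 2.11 and 0.28 in knockout pools 1, 2, 3 and 7, against 1.95, 3.44, 3.21 and 3.89 in WT pools 1, 2, 5 and 7. Every knockout pool lay below WT pools 2, 5 and 7, with a difference of -1.80 ± 0.50 (SE, limma adjusted p = 0.362) without WT pool 1 and -1.40 ± 0.57 (adjusted p = 0.735) with it. Markers of the labelled tissue were present: all 20 cardiomyocyte markers and all 11 markers of the outflow tract and the second heart field were measured, while 3 of 8 skeletal muscle markers were.

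The question of the comparison was whether smooth muscle genes of the outflow tract depend on Raldh2 once the early supplement has ended. Among the 35 genes, none differed between knockout and WT pools beyond the test over all genes, with WT pool 1 or without it. Without that pool 23 of the 35 log2 differences were smaller than 0.2 in size, against 59.8% of all genes. The 23 included all 4 SRF factors, all 8 non-muscle genes and 6 of the 11 contractile genes. With all 8 arrays 4 of the 35 were that small, against 20.1% of all genes. Farthest from 0 without WT pool 1 were Tes, Synpo2, Rgs5 and Rgs4, higher in knockout pools, and Itga5, Cnn1 and Actg2, lower in knockout pools. In all 8 arrays Tes, Synpo2, Rgs5 and Rgs4 were again the highest. Only Myh11 (-0.24), Mylk (-0.14) and Itga5 (-0.08) were then below 0, while Cnn1 (0.17) and Actg2 (0.08) were above it. Levels here are log2 of the processed signal over the array's 75th percentile, and a difference is the knockout mean minus the WT mean on that scale. In bulk tissue, fewer cells of a type and less RNA per cell cannot be told apart.

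In all 8 arrays 32 of the 35 differences were above 0 and 3 below, with a median of 0.49 on the log2 scale, against a median of 0.18 and 59.4% above 0 over all 24385 genes. Limma called 0 of the 35 at an adjusted p under 0.05, against 0% of all genes, and the smallest adjusted p was 0.735. No member had an unadjusted p under 0.05, against 1.54% of all genes (0.509% higher and 1.03% lower in knockout). In 2 members, Synpo2 and Rgs5, the groups did not overlap, with knockout higher in both, against 5.5% of all genes without overlap (4.09% higher and 1.41% lower). WT pool 1 was the lowest of the 8 pools for 33 of the 35 members and the highest for Myh11 and Mylk. Its level minus the mean of the other WT pools had a median of -2.24 over the members, within a range of -2.78 to 2.02.

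Without WT pool 1, 17 differences were above 0 and 18 below, with a median of -0.04, against a median of 0.05 and 58.5% above 0 over the 23760 genes then tested. The adjusted test again called 0 members, against 0% of all genes, with a smallest adjusted p of 0.436. An unadjusted p under 0.05 was reached by 3 members (Synpo2, Rgs5 and Itga5), against 10.6% of all genes (6.22% higher and 4.41% lower). The groups did not overlap in 4 (these 3 and Vcl), against 11.6% of all genes (6.61% higher and 4.95% lower). Both counts are close to the share of all genes. For 23 of the 35 the 95% interval of the difference lay within 1.5-fold either way, against 55.6% of all genes. The standard error of a member's difference had a median of 0.15 (0.086 to 0.67), against a median of 0.53 with all 8 arrays. The direction differed between the fits with and without the pool for 19 of the 35, and it also changed for many members under other scalings, as the closing paragraphs list.

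**Figure D1:**
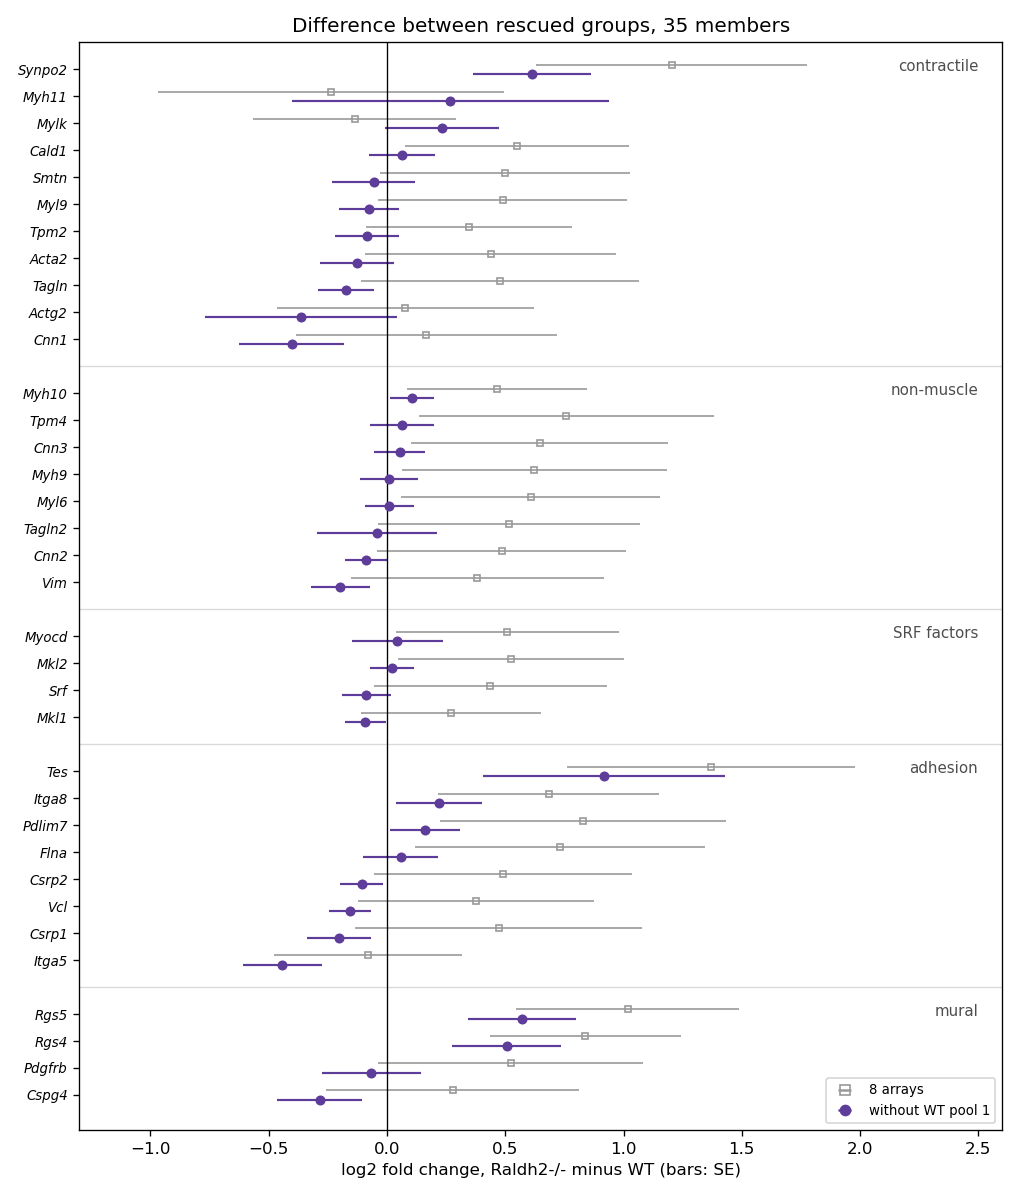
Log2 fold changes of the 35 measured genes, knockout minus WT, by role, with bars for 1 standard error; grey open squares use all 8 arrays and filled purple circles leave out WT pool 1. Most grey squares lie right of 0 (32 of 35), and the purple circles lie on both sides of it (17 above and 18 below).

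Of the 11 contractile genes measured, 6 had a 95% interval within 1.5-fold either way without WT pool 1, and those of Synpo2, Cnn1, Actg2, Myh11 and Mylk reached past it. Without WT pool 1, 7 of the 11 measured lay lower in knockout pools (median -0.08, range -0.40 to 0.61), and with all 8 arrays 9 of 11 lay higher (median 0.44). In the lists of 4 values below, knockout pools stand in the order 1, 2, 3 and 7 and WT pools in the order 1, 2, 5 and 7. Acta2, alpha smooth muscle actin (probe at chr19:34316060-34316119, minus strand, mm9), had levels of 7.79, 8.10, 7.75 and 7.98 in knockout pools, against 5.77, 7.79, 7.98 and 8.31 in WT pools. The groups overlapped: knockout pools 1 and 3 lay just below the lowest of WT pools 2, 5 and 7, WT pool 7 was the highest of all, and WT pool 1 was far under the rest. The mean was 7.90 ± 0.17 (SD, n = 4) in knockout and 8.03 ± 0.26 (SD, n = 3) in WT without pool 1, a difference of -0.13 (95% interval -0.49 to 0.24), and the exact two-sided permutation test over 35 assignments gave p = 0.457. With pool 1 the WT mean was 7.47 ± 1.15 (SD, n = 4), the difference 0.44 and the exact permutation p 0.829 over 70 assignments of pools. The smallest p either design allows is 0.0286.

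Tagln, transgelin or SM22-alpha, which binds actin filaments (chr9:45738097-45738156, minus strand, mm9), had 7.25, 7.27, 7.32 and 7.42 in knockout pools, against 4.89, 7.32, 7.43 and 7.71 in WT pools. The knockout pools formed a narrow band (SD 0.07) at the lower end of WT pools 2, 5 and 7. Its difference was -0.17 ± 0.12 (SE; adjusted p = 0.613) without WT pool 1 and 0.48 ± 0.59 (adjusted p = 0.735) with it. Cnn1, calponin 1, an actin-binding inhibitor of myosin (chr9:21913058-21913117, plus strand, mm9), had 6.64, 6.59, 6.97 and 6.42 in knockout pools, against 4.78, 6.60, 7.13 and 7.44 in WT pools. WT pools 5 and 7 were above every knockout pool, while WT pool 2 sat among them. The difference was -0.40 ± 0.22 (95% interval -0.92 to 0.12, adjusted p = 0.543) without WT pool 1 and 0.17 ± 0.55 (adjusted p = 0.874) with it.

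The heavy chain of smooth muscle myosin and its kinase gave dim signals. Myh11, that heavy chain (chr16:14202190-14202249, minus strand, mm9), had -3.96, -4.12, -4.07 and -4.03 in knockout pools, against -2.30, -2.72, -4.22 and -6.01 in WT pools, and was well above background in 4 knockout and 3 WT pools. The knockout pools lay within a band of SD 0.07, and the WT pools spread on both sides of it. Its difference was 0.27 ± 0.67 (adjusted p = 0.894) without WT pool 1 and -0.24 ± 0.73 (adjusted p = 0.866) with it. Of the 7 arrays, leaving out WT pool 2 as well gave 1.07, and leaving out WT pool 7 gave -0.58. Mylk, myosin light chain kinase (chr16:35001266-35001325, plus strand, mm9), had -3.53, -3.81, -3.24 and -3.14 in knockout pools, against -2.18, -3.18, -3.87 and -3.95 in WT pools. WT pool 1 was again the highest, and the other pools overlapped. The difference was 0.23 ± 0.24 (adjusted p = 0.738) without that pool and -0.14 ± 0.43 (adjusted p = 0.868) with it.

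Synpo2, synaptopodin 2, an actin-bundling protein of muscle (chr3:122779459-122779518, minus strand, mm9), had 2.56, 2.75, 2.58 and 3.13 in knockout pools, against -0.22, 2.47, 2.38 and 1.58 in WT pools. Each of the 4 knockout pools was above all 4 WT pools. The difference was 0.61 ± 0.25 (1.53-fold, 95% interval 0.03 to 1.20, unadjusted p = 0.0427, adjusted p = 0.461) without WT pool 1 and 1.20 ± 0.57 (2.30-fold, adjusted p = 0.735) with it. Leaving out WT pool 7 as well brought it to 0.33. Actg2, the smooth muscle gamma actin (chr6:83462904-83462963, minus strand, mm9), had 1.33, 0.55, 1.84 and 0.67 in knockout pools, against -0.30, 2.09, 1.51 and 0.78 in WT pools. Its pools were scattered in both groups, and the difference was -0.36 ± 0.41 (95% interval -1.32 to 0.59, adjusted p = 0.76) without WT pool 1 and 0.08 ± 0.54 (adjusted p = 0.941) with it. The other contractile genes were Myl9, the regulatory light chain, Smtn (smoothelin), Cald1 (caldesmon) and Tpm2 (beta tropomyosin). Without WT pool 1 their differences were -0.08 ± 0.13, -0.06 ± 0.17, 0.06 ± 0.14 and -0.08 ± 0.13, all within a 95% interval of 1.5-fold. With all 8 arrays the same genes had 0.49 ± 0.53, 0.50 ± 0.53, 0.55 ± 0.47 and 0.35 ± 0.44.

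Non-muscle actomyosin genes drive contraction and shape in most cells. At the probe that stands for each gene, their differences were close to 0 apart from WT pool 1. Without WT pool 1 their 8 differences ran from -0.20 to 0.10 (median 0.01, 5 above 0), and with all 8 arrays all 8 were above 0 (0.38 to 0.76, median 0.56). Myh9 and Myh10, heavy chains of non-muscle myosin, had 0.01 ± 0.12 and 0.10 ± 0.09 without the pool, and 0.62 ± 0.56 and 0.47 ± 0.38 with it. Myl6, the essential light chain that smooth and non-muscle myosin share, had 0.01 ± 0.10 without it and 0.61 ± 0.55 with it. Vim, the intermediate filament protein vimentin, had the lowest difference of them, -0.20 ± 0.13 (adjusted p = 0.594) without WT pool 1 and 0.38 ± 0.54 with it. Its level was 6.85 ± 0.18 (SD, n = 4) in knockout pools and 7.05 ± 0.11 (SD, n = 3) in WT pools without pool 1. Of the 8, Tagln2 (transgelin 2) alone had a 95% interval that reached past 1.5-fold (-0.64 to 0.55), and its pools ran from 6.57 to 7.43 in knockout and from 6.72 to 7.53 in WT pools 2, 5 and 7. Other probes of Tagln2 and Cnn3, given below, lay farther from 0.

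At the probe that stands for each gene, the transcription factors of the programme overlapped between the groups. Their differences ran from -0.09 to 0.04 without WT pool 1 (median -0.03) and from 0.27 to 0.52 with it (median 0.47). Srf, which binds the CArG box and whose own promoter holds a pair (probe at chr17:46683788-46683795, as the file gives it, minus strand, mm9), had 3.49, 3.56, 3.52 and 3.43 in knockout pools, against 1.49, 3.41, 3.65 and 3.69 in WT pools. Myocd, myocardin, the cofactor restricted to heart and smooth muscle (chr11:64991930-64991989, minus strand, mm9), had 2.80, 3.28, 3.11 and 2.99 in knockout pools, against 1.14, 2.65, 2.99 and 3.36 in WT pools. In both genes the knockout pools lay inside the range of WT pools 2, 5 and 7. The differences without WT pool 1 were -0.09 ± 0.10 (95% interval -0.33 to 0.16) for Srf and 0.04 ± 0.19 (-0.41 to 0.50) for Myocd, and with it 0.44 ± 0.49 and 0.51 ± 0.47.

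Mkl1, the myocardin-related factor that carries the actin signal to SRF (chr15:80842711-80842770, minus strand, mm9), had 3.002, 2.96, 2.94 and 3.04 in knockout pools, against 1.63, 3.004, 3.12 and 3.11 in WT pools. Mkl2, its close relative (chr16:13417529-13417588, plus strand, mm9), had 2.64, 2.79, 2.75 and 2.62 in knockout pools, against 0.66, 2.68, 2.74 and 2.61 in WT pools. Apart from WT pool 1 the values of each of these probes lay within a narrow band, in which the groups overlapped. Other probes of both genes are given below. Without it Mkl1 differed by -0.09 ± 0.09 (95% interval -0.29 to 0.11) and Mkl2 by 0.02 ± 0.09 (-0.20 to 0.24), and with it by 0.27 ± 0.38 and 0.52 ± 0.48. The 5 genes whose promoters are printed above had differences of -0.08 (Myl9), 0.01 (Myl6), -0.09 (Cnn2), -0.16 (Vcl) and -0.09 (Srf) without WT pool 1. With all 8 arrays those were 0.49, 0.61, 0.48, 0.38 and 0.44.

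Adhesion and scaffold genes, which tie the actin cables to the matrix, held values on both sides. Without WT pool 1, 4 were above 0 and 4 below (median -0.02, range -0.44 to 0.92), and with it 7 of 8 were above 0 (median 0.59). Itga5, the alpha subunit of the main fibronectin receptor (chr15:103175022-103175081, minus strand, mm9), had 0.86, 0.84, 1.09 and 0.38 in knockout pools, against -0.21, 1.22, 1.27 and 1.22 in WT pools. Every knockout pool lay below WT pools 2, 5 and 7, and above WT pool 1. The difference was -0.44 ± 0.17 (95% interval -0.83 to -0.05, unadjusted p = 0.0318, adjusted p = 0.436) without WT pool 1 and -0.08 ± 0.40 (adjusted p = 0.914) with it. With all 8 arrays it turned to 0.02 under quantile scaling and to 0.43 under scaling by the array median.

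Vcl, vinculin, which couples integrins to actin (chr14:21852105-21852164, plus strand, mm9), had 3.17, 3.27, 3.33 and 3.25 in knockout pools, against 1.28, 3.45, 3.43 and 3.36 in WT pools. Here too the knockout pools lay below WT pools 2, 5 and 7, by a small amount: -0.16 ± 0.09 (95% interval -0.36 to 0.05, unadjusted p = 0.117, adjusted p = 0.55), and 0.38 ± 0.50 (adjusted p = 0.735) with WT pool 1. Itga8, the integrin alpha 8 subunit, found on smooth muscle and mesenchyme (chr2:12028462-12028521, minus strand, mm9), had 0, -0.54, 0.08 and -0.29 in knockout pools, against -2.26, -0.32, -0.25 and -0.66 in WT pools. The groups of Itga8 overlapped, and the difference was 0.22 ± 0.18 (adjusted p = 0.678) without WT pool 1 and 0.68 ± 0.47 (adjusted p = 0.735) with it.

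Tes, testin, a LIM protein of focal adhesions (chr6:17055712-17055771, plus strand, mm9), had 1.31, 1.21, 0.75 and 2.16 in knockout pools, against -1.37, 1.59, 0.12 and -0.39 in WT pools. Its pools varied widely in both groups, and WT pool 2 lay above 3 of the knockout pools. The difference was the highest of the set in both fits, at 0.92 ± 0.51 (95% interval -0.29 to 2.12, adjusted p = 0.55) without WT pool 1 and 1.37 ± 0.61 (adjusted p = 0.735) with it. Leaving out WT pool 7 as well gave 0.50, and leaving out WT pool 2 gave 1.49. Flna (filamin A, an actin crosslinker), Csrp1 and Csrp2 (LIM proteins of smooth muscle) and Pdlim7 (a PDZ and LIM scaffold) had 0.06 ± 0.16, -0.20 ± 0.14, -0.11 ± 0.09 and 0.16 ± 0.15 without WT pool 1. Their 95% intervals stayed within 1.5-fold. With all 8 arrays they had 0.73 ± 0.61, 0.47 ± 0.61, 0.49 ± 0.55 and 0.83 ± 0.61.

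Of the mural cell genes, 2 were above 0 and 2 below without WT pool 1 (median 0.22, range -0.28 to 0.57), and all 4 were above 0 with it (median 0.68). Those above 0 in both fits were Rgs5 and Rgs4, regulators of G-protein signalling that speed the shut-off of G proteins and mark pericytes and vascular smooth muscle. Rgs5 (chr1:171623021-171623080, plus strand, mm9) had 2.40, 2.41, 2.44 and 2.90 in knockout pools, against 0.17, 2.11, 2.32 and 1.47 in WT pools. All 4 knockout pools were above all 4 WT pools. Its difference was 0.57 ± 0.23 (1.48-fold, 95% interval 0.03 to 1.11, unadjusted p = 0.0405, adjusted p = 0.458) without WT pool 1 and 1.02 ± 0.47 (2.02-fold, adjusted p = 0.735) with it. Leaving out WT pool 7 as well brought it to 0.32. Rgs4, whose probe lies nearby on the same chromosome (chr1:171672488-171672547, minus strand, mm9), had -1.90, -1.76, -1.48 and -1.24 in knockout pools, against -3.43, -1.92, -1.83 and -2.55 in WT pools. WT pool 5 lay above knockout pool 1, so the groups overlapped, and the difference was 0.51 ± 0.23 (1.42-fold, adjusted p = 0.485) without WT pool 1 and 0.84 ± 0.40 (adjusted p = 0.735) with it. Without WT pool 7 as well it was 0.28.

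Pdgfrb, the receptor through which platelet-derived growth factor recruits mural cells (chromosome 18), had 1.55, 1.20, 2.02 and 1.88 in knockout pools, against -0.63, 1.82, 1.85 and 1.51 in WT pools. Cspg4, the proteoglycan NG2 of pericytes (chr9:56746627-56746686, plus strand, mm9), had 2.54, 3.01, 3.06 and 2.47 in knockout pools, against 0.81, 2.94, 3.18 and 3.04 in WT pools. Both groups overlapped in both genes. The difference without WT pool 1 was -0.07 ± 0.21 (95% interval -0.56 to 0.43) for Pdgfrb and -0.28 ± 0.18 (-0.70 to 0.14) for Cspg4, and with it 0.52 ± 0.56 and 0.28 ± 0.53. Whether these 4 genes differ from each other in their response was not tested.

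**Figure D2:**
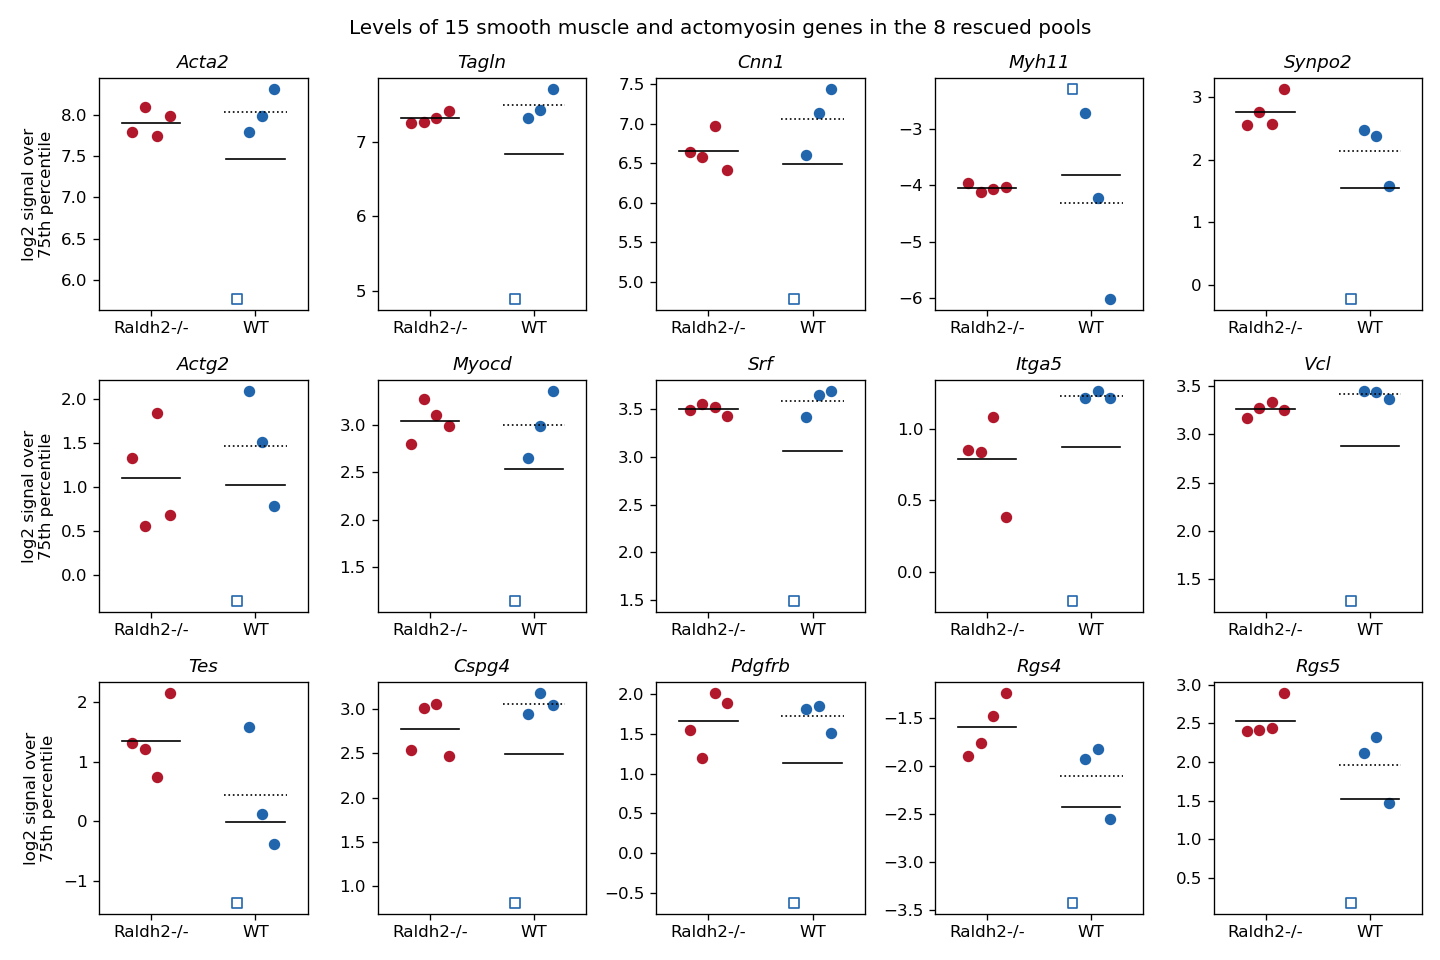
Levels of 15 of the genes in each pool, as log2 signal over the array's 75th percentile, with knockout pools in red on the left and WT pools in blue on the right; the open square is WT pool 1, solid lines are group means and the dotted line is the WT mean without that pool. The open square is the lowest point in every panel but that of Myh11, where it is the highest.

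Among the 7 arrays other than WT pool 1, single pools moved groups of these genes in opposite directions. WT pool 7 was the highest pool for 8 genes (Acta2, Tagln, Cnn1, Myl9, Tagln2, Myocd, Srf and Csrp1) and the lowest for 13, among them Synpo2, Tes, Rgs4, Rgs5 and Myh11. Knockout pool 7 was the highest for 8 and the lowest for 7. The summed signal of the 11 contractile genes, with the array's 75th percentile set to 1, was 843, 903, 869 and 839 in knockout pools, against 192, 808, 955 and 1127 in WT pools. The sum of the 20 cardiomyocyte markers was 2456, 2750, 2730 and 2338 in knockout pools, against 608, 2403, 2880 and 3855 in WT pools. Both sums were highest in WT pool 7 and lowest in WT pool 1. All 20 cardiomyocyte markers had a negative difference without WT pool 1 (median -0.20), against 58.5% of all genes above 0. A limma unadjusted p under 0.05 was reached by 5 of them, against 10.6% of all genes (4.41% lower in knockout). With that pool 16 of 20 were above 0, against 59.4% of all genes. The part of heart muscle cells in the levels of Acta2, Tagln and Cnn1, which embryonic heart muscle also makes, was not tested. The summed neural crest markers were 17.8, 17.7, 17.6 and 22.7 in knockout pools, against 11.9, 17.2, 17.7 and 16.8 in WT pools. Knockout pool 7 stood above the rest in that sum, although Sox10 of the same list was lowest there (-2.76). It was also the highest pool for Rgs5, Rgs4, Tes and Synpo2. Markers of pharyngeal and surface epithelium summed to 47.4, 51.2, 43.8 and 66.8 in knockout pools, against 31.6, 85.8, 60.3 and 101 in WT pools. Such a sum follows its brightest markers. Without WT pool 1, 9 of the 12 epithelial markers had a difference above 0 (median 0.61), against 58.5% of all genes. With that pool 5 of 12 did (median -0.05), against 59.4% of all genes. In the same list, Epcam was highest in knockout pool 7 (-1.31) apart from WT pool 1, and Krt19 was lowest in it (2.13). The part of neural crest or epithelial cells in the values of Rgs5, Rgs4, Tes and Synpo2 was not tested.

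**Figure D3:**
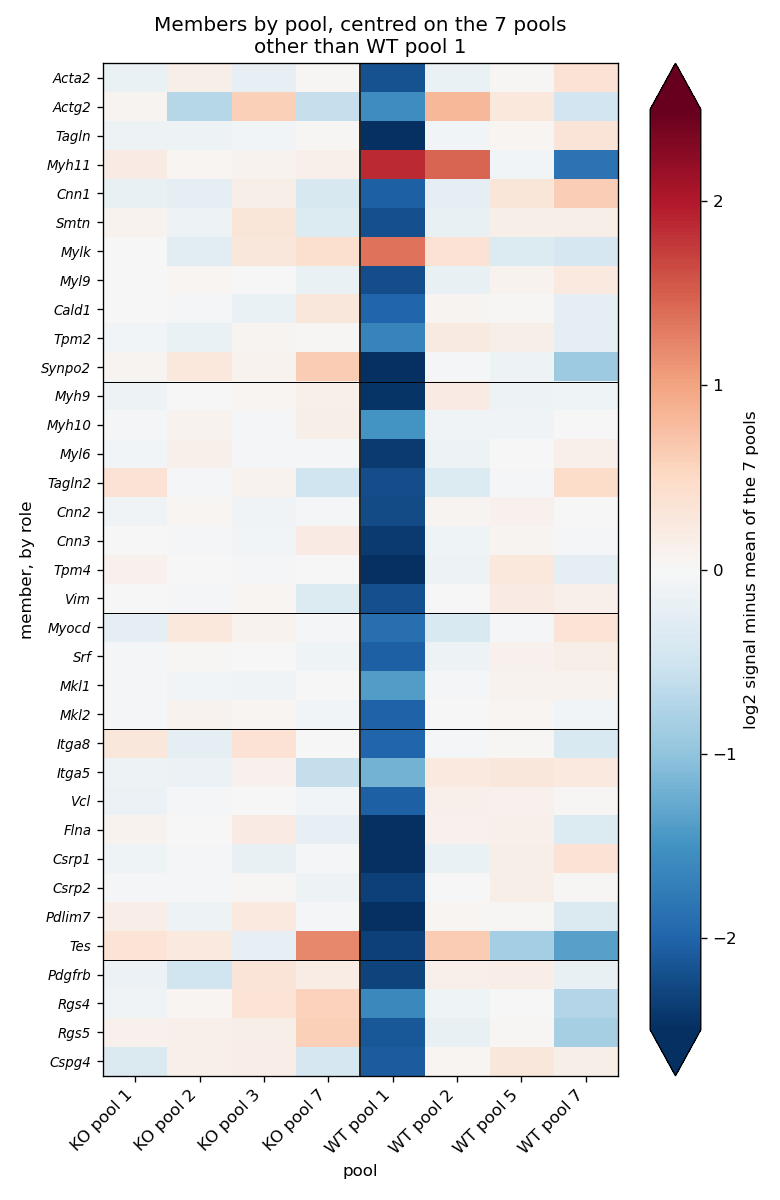
Level of each of the 35 genes in each pool (KO, knockout, left; WT, right) minus its mean over the 7 pools other than WT pool 1, on a log2 colour scale, grouped by role. WT pool 1 is blue for 33 genes and red for Myh11 and Mylk, and WT pool 7 holds both the highest (8 genes) and the lowest values (13 genes) of the remaining pools.

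**Figure D4:**
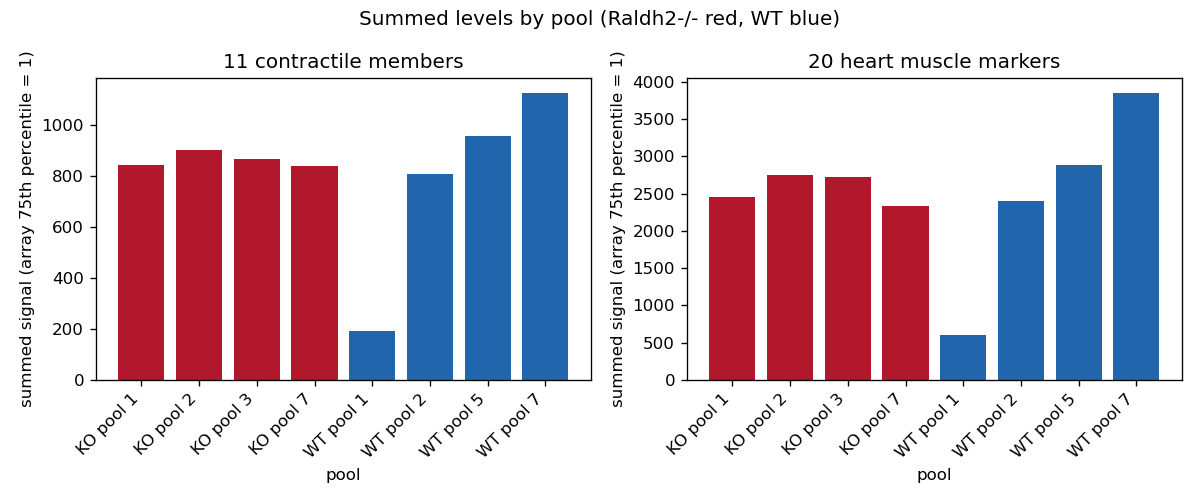
Summed signal per pool, with the array's 75th percentile set to 1, of the 11 measured contractile genes and of the 20 cardiomyocyte markers, with knockout pools in red and WT pools in blue. Both sums peak in WT pool 7 (1127 and 3855) and are lowest in WT pool 1 (192 and 608).

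Separate probes of a gene did not always give the same difference. Without WT pool 1 the kept probes of 9 of the 14 genes with several had the same sign, and those of 5 (Synpo2, Pdlim7, Mkl2, Myl6 and Tpm2) had opposite signs. Tested singly, 7 of the 52 kept probes had an unadjusted p under 0.05, against 10.2% of all 32383 probes, and 0 had an adjusted p under 0.05, against 0%. With all 8 arrays 0 of the 52 had an unadjusted p under 0.05, against 1.55% of 33400 probes. For Synpo2 the probe used above gave 0.61 ± 0.25, that at chr3:122782094-122782153 gave 0.56 ± 0.25 and that at chr3:122815498-122815557 gave -0.09 ± 0.25. Of its 3 probes, 2 were above 0, and with all 8 arrays the same 3 probes gave 1.20 ± 0.57, 0.48 ± 0.31 and 0.19 ± 0.38. For Rgs4 the other probe (chr1:171671609-171671668) gave 0.83 ± 0.32 (unadjusted p = 0.0352), so both its probes were above 0. With WT pool 1 that probe gave 0.22 ± 0.61. For Mkl1 the other probe (chr15:80843080-80843139) gave -0.23 ± 0.09 (unadjusted p = 0.0412, adjusted p = 0.475) without WT pool 1. There every knockout pool lay below WT pools 2, 5 and 7, unlike at the probe used above. The same Mkl1 probe gave 0.08 ± 0.34 with WT pool 1.

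Probes also differed in Pdlim7, Tagln2, Mkl2 and Cnn3. The Tagln2 probe used above gave -0.04 ± 0.25 and the other -0.46 ± 0.14 (unadjusted p = 0.0131, adjusted p = 0.395), and with WT pool 1 the pair gave 0.52 ± 0.55 and 0.15 ± 0.56. For Cnn3 (calponin 3) the pair gave 0.05 ± 0.11 and 0.34 ± 0.10 (unadjusted p = 0.00957, adjusted p = 0.378) without WT pool 1, and 0.65 ± 0.54 and 0.90 ± 0.51 with it. The 3 probes of Pdlim7 gave 0.16 ± 0.15, 0.46 ± 0.22 and -0.18 ± 0.18 without that pool, and 0.83 ± 0.61, 0.91 ± 0.47 and 0.32 ± 0.49 with it. The 3 probes of Mkl2 gave 0.02 ± 0.10, -0.30 ± 0.28 and -0.37 ± 0.28 without it, and 0.52 ± 0.48, -1.13 ± 0.75 and -1.06 ± 0.66 with it. The latter 2 probes were dim, at -4.67 and -4.75 in knockout pool 1, against 2.64 for the probe used above. In WT pool 1 they read -0.89 and -1.73, and the last was well above background on only 6 arrays. The discordant probes of Tagln2 (chr1:174436738-174436797, plus strand, mm9) and of Pdlim7 (chr13:55610290-55610349, minus strand, mm9) are printed because the sign or size of the gene's value turns on them; both have at least 1 reading frame without a stop over their 60 bases.
Tagln2: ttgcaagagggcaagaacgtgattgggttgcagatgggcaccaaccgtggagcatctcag
Pdlim7: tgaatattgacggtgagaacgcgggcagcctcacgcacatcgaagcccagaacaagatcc

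**Figure D5:**
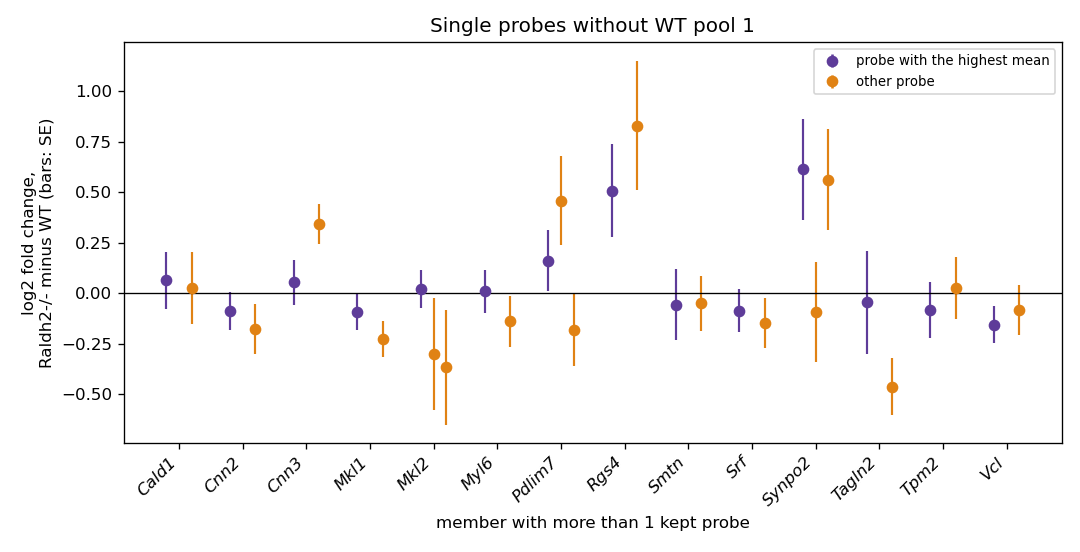
Log2 fold change without WT pool 1, knockout minus WT, of each kept probe of the 14 genes with more than 1, with bars for 1 standard error; purple marks the probe that stands for the gene and orange its other probes. Orange points lie across 0 from the purple one for Mkl2, Myl6, Pdlim7, Synpo2 and Tpm2.

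Other genes of the pathway were counted in 3 lists. Of 20 regulators of myosin light chain phosphorylation and of actin assembly, which set the force and the actin signal to SRF, 0 were past the threshold over all genes; 12 were above 0 without WT pool 1 (median 0.06) and 16 with it (median 0.55). Limk1, the kinase that inactivates cofilin, had 0.46 ± 0.17 without WT pool 1 (unadjusted p = 0.0273, adjusted p = 0.429) and 0.89 ± 0.44 with it, with levels of 2.77, 2.54, 2.67 and 2.43 in knockout pools, against 0.42, 2.13, 2.47 and 1.83 in WT pools. Its knockout pool 7 lay just below WT pool 5. Arhgef12, a guanine nucleotide exchange factor, had 0.24 ± 0.14 without WT pool 1 and 0.80 ± 0.53 with it.

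Of 31 other SRF targets and focal adhesion genes, again 0 were past the threshold; without WT pool 1, 26 lay below 0 (median -0.16), and with it 28 lay above (median 0.34). Several of these are also heart muscle genes, and their sum was 2246 to 2445 in knockout pools, against 480, 2219, 2416 and 2759 in WT pools, so that WT pool 7 was highest here too. Acta1, skeletal alpha actin, had 5.26, 5.63, 5.34 and 5.33 in knockout pools, against 3.95, 5.49, 6.04 and 6.34 in WT pools. Its difference was -0.56 ± 0.21 (unadjusted p = 0.0292, adjusted p = 0.43) without WT pool 1 and -0.06 ± 0.50 with it. Itga1, a collagen-binding integrin subunit, had -0.43 ± 0.16 without that pool (adjusted p = 0.43), with all 4 knockout pools below WT pools 2, 5 and 7, and 0.02 ± 0.45 with it. Tpm3, a tropomyosin, had 0.33 ± 0.13 and 0.92 ± 0.55, and Pxn, the adhesion adaptor paxillin, -0.26 ± 0.15 and -0.54 ± 0.34, without and with WT pool 1.

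Of 31 genes of mural cell fate and vessel matrix, 0 were past the threshold, 14 lay above 0 without WT pool 1 (median -0.04) and 27 with it (median 0.41). Hey1, a Notch target, had 3.69, 3.81, 3.37 and 4.13 in knockout pools, against 1.04, 3.47, 3.29 and 3.21 in WT pools, a difference of 0.43 ± 0.18 without WT pool 1 (unadjusted p = 0.0513, adjusted p = 0.47) and 1.00 ± 0.54 with it. Only knockout pool 3 lay within the range of the WT pools. Jag1, a Notch ligand, had 0.36 ± 0.20 and 0.84 ± 0.48, and Tgfbr2, a receptor for TGF-beta, -0.36 ± 0.16 and 0.17 ± 0.51, without and with that pool.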

How the data were processed

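RNA of 8 pools was labelled with Cy3 (50 ng each, integrity number over 8.0, columns without DNase, per the labels' protocols). The deposited scanner files hold one intensity per spot: per the file headers, they come from Feature Extraction 10.7.3.1 (protocol GE1_107_Sep09, array design 028005), and the processed signal is background-subtracted and linear, not scaled between arrays. Probe positions are those of mm9, per the file headers. The authors' deposited matrix held the same intensity rounded, differing by at most 0.496%.

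The 59305 spots that are not controls were averaged to 55681 probes, of which 26056 took their gene through their accession in the RefSeq table. Each array's signals were divided by their 75th percentile over probes, and log2 was taken. Probes entered the test when 3 or more arrays of either group read them as well above background, and where several of a gene did, the one with the highest mean represented it. No member's spot was saturated. Knockout was compared with WT by two-sided moderated tests (lmFit, then eBayes) of limma 3.58.1 under R 4.3.3, with p-values adjusted by Benjamini-Hochberg over all genes and a threshold of 0.05. Acta2 was also tested by exact permutation. The fits were tested on simulated data. The number of arrays limits the precision. Whether a probe lies in an exon or an untranslated region was not analysed here.

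The members and all lists were chosen with earlier results of these data known, so counts over them are descriptions. Values in every pool are given for Acta2, Tagln, Myh11, Cnn1, Myocd, Srf, Mkl1, Mkl2, Itga8, Pdgfrb, Rgs4, Rgs5 and Cspg4, for members whose groups did not overlap, and for the 4 largest differences each way in either fit; other members are summarised. Of each further list, the genes named are those with the 2 smallest unadjusted p in either fit, except 1 that is not reported here. Alternatives covered scaling, background, the matrix, the filter for dim signals, the choice of probe, array weights, the variance prior, the pool number as a block and leaving out each pool. Alternatives on the 7 arrays without WT pool 1 were chosen after seeing the data.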

Additional observations from a re-analysis of the deposited data

Results flagged for a closer look

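In each group of 4 pools, the gap of the highest or lowest pool to the nearest other pool was divided by the range of the 4. That pool was set apart when the ratio exceeded Dixon's 95% critical value. Of 108 such groups, over members and summed lists, 25 had a pool apart. Chance flags about 1 in 20, or 5.4 of 108. WT pool 1 was the pool apart in 23 of them and knockout pool 7 in 2.

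Among the contractile genes WT pool 1 stood apart with log2 levels of 4.89 for Tagln, 1.22 for Smtn and -0.69 for Cald1. Among the non-muscle genes its level was 2.78 for Myh9, 2.51 for Myh10 and 5.80 for Myl6. It was 2.72 for Cnn2, 3.09 for Cnn3, 2.99 for Tpm4 and 4.73 for Vim. The SRF factors gave 1.49 for Srf, 1.63 for Mkl1 and 0.66 for Mkl2 in that pool. Of the adhesion genes, Itga5 had -0.21, Vcl 1.28 and Flna 3.84 there, with 4.93 for Csrp2 and 1.76 for Pdlim7. Of the mural genes, Pdgfrb had -0.63 and Cspg4 0.81. These 20 genes were all lower in WT pool 1 than in the other 3 WT pools. The same pool was lowest in the summed signal of the adhesion genes (89.3), of the mural fate and matrix genes (74.2) and of the neural crest markers (11.9).

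Knockout pool 7 stood above the other 3 knockout pools in the level of Rgs5 (2.90) and in the summed neural crest markers (22.7). Why these pools differ was not tested.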

How the results depend on the processing

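No setting called a member over all genes, and leaving out WT pool 1 or weighting arrays changed the direction of many members. On 8 arrays the other settings kept the member median between 0.47 and 1.00, except quantile scaling (0.0568) and array weights (-0.00478). Scaling by the array median moved the median of all genes to 0.69 in 8 arrays (members 1.00) and to -0.17 in 7 (members -0.26). Genes past the threshold numbered 8 with array weights (1 higher, 7 lower). In 7 arrays they numbered 22 under array-median scaling (3 higher, 19 lower) and 0 to 7 when another pool was left out. Deviations of same-numbered pools from their group means correlated by -0.15 (pool 1), 0.33 (pool 2) and -0.41 (pool 7). The WT mean included WT pool 1, so these values cannot show whether pool numbers pair the samples. With the pool number as a replicate block limma called 0 genes and 0 members (unadjusted p under 0.05 in 226 genes and 0 members), the member median was 0.67, and Actg2 turned to -0.00792. The cause of these changes was not tested. Dim signals limit Myh11, Mylk, Lmod1 and the Mkl2 probes other than the one that stands for the gene.

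Log2 differences of the following members changed sign. With array weights they were Acta2 -0.11, Actg2 -0.39, Tagln -0.18, Myh11 0.13, Cnn1 -0.37, Smtn -0.00478, Mylk 0.11, Myl9 -0.0189, Tpm2 -0.14, Myh9 -0.0377, Cnn2 -0.0946, Vim -0.14, Srf -0.0655, Mkl1 -0.0883, Vcl -0.18, Csrp1 -0.18, Csrp2 -0.0991, Pdgfrb -0.21 and Cspg4 -0.31. Under quantile scaling of 8 arrays they were Acta2 -0.0533, Tagln -0.0087, Myh11 0.61, Cnn1 -0.34, Mylk 0.80, Myl9 -0.0394, Tpm2 -0.11, Myh10 -0.11, Cnn2 -0.10, Vim -0.11, Srf -0.0446, Mkl1 -0.21, Itga5 0.0247, Vcl -0.0712, Csrp1 -0.00468, Csrp2 -0.00188 and Cspg4 -0.0763, and the Acta2 value also holds for its permutation test. Quantile scaling of 7 arrays gave Myh11 -0.064, Myh9 -0.00896, Tagln2 0.0305 and Mkl2 -0.00556. Scaling by the array median gave Myh11 0.27, Mylk 0.37 and Itga5 0.43 in 8 arrays, and Cald1 -0.16, Myh9 -0.21, Myh10 -0.11, Myl6 -0.21, Cnn3 -0.17, Tpm4 -0.16, Myocd -0.18, Mkl2 -0.20, Flna -0.16 and Pdlim7 -0.0591 in 7. The mean of a gene's probes gave Mkl2 -0.55 and other single probes gave Mkl2 -1.13, Mkl2 -1.06 and Vcl -0.0212 in 8 arrays, and normexp background gave Myh11 -0.18 in 7.

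Leaving out each pool in turn from the 8 arrays gave ranges that cross 0 for these members; the sign changed only without WT pool 1, except that it changed without other pools as well for Actg2 and Myh11 and only without other pools for Itga5: Actg2 -0.36 to 0.43, Itga5 -0.44 to 0.0544, Acta2 -0.13 to 0.72, Tagln -0.17 to 0.77, Myh11 -0.97 to 0.27, Cnn1 -0.40 to 0.48, Smtn -0.056 to 0.72, Mylk -0.36 to 0.23, Myl9 -0.0767 to 0.74, Tpm2 -0.0831 to 0.55, Tagln2 -0.0436 to 0.85, Cnn2 -0.0888 to 0.70, Vim -0.20 to 0.61, Srf -0.0876 to 0.65, Mkl1 -0.0915 to 0.40, Vcl -0.16 to 0.57, Csrp1 -0.20 to 0.78, Csrp2 -0.11 to 0.72, Pdgfrb -0.0656 to 0.76 and Cspg4 -0.28 to 0.51. From the 7 arrays without WT pool 1, such ranges were taken only for Acta2, Tagln, Cnn1, Myh11, Synpo2, Rgs5, Rgs4, Tes, Itga5 and Vcl. Of these, Acta2 (-0.24 to 0.0136) and Myh11 (-0.58 to 1.07) crossed 0. Sign changes of the other members in those fits were not listed. Members above 0 numbered 14 to 17 when another pool was left out, against 17 with all 7 arrays. Of the 7 arrays, leaving out WT pool 7 or knockout pool 2 left 0 members with an unadjusted p under 0.05, knockout pool 7 left 1, and the other pools left 2 to 4, against 3 with all 7.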
